A study of Mus musculus with 2 samples.

Results

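The genes described here are 39 genes of the cell cycle, chosen by symbol from the 31053 genes counted in single-cell RNA-seq of mouse skin wounds. Of these, 16 were listed as genes of the S phase, in which DNA is copied, or of its preparation: Mcm2 to Mcm7, Pcna, Tyms, Rrm1, Rrm2, Pclaf, Hells, Gins2, Cdt1, Cdc6 and Uhrf1. Another 22 act in the G2 phase and mitosis: Mki67, Top2a, Cdk1, Ccnb1, Ccnb2, Ccna2, Birc5, Ube2c, Cenpa, Cenpe, Cenpf, Tpx2, Aurka, Aurkb, Plk1, Bub1, Bub1b, Kif11, Kif23, Nusap1, Cdc20 and Prc1. Stmn1, which encodes a protein that destabilises microtubules and is abundant in dividing cells, was put in neither list. All 39 had at least 1 UMI (unique molecular identifier, a count of an RNA molecule) in each library.

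The series holds 2 libraries of live cells from back-skin wounds collected 5 days after injury. In the labels both come from C57BL/6 mice of 7 to 9 weeks with the genotype Mrc1-DTR, in which the diphtheria toxin receptor is driven by the Mrc1 promoter (Mrc1 encodes the mannose receptor CD206), so that toxin removes cells that use this promoter. The mice of the PBS library are labelled as given the buffer PBS and those of the DTX library as given diphtheria toxin. The tissue was taken with a 10 mm punch, cells negative for the dye 7AAD were sorted as live, and, by the study's methods, 3 mice were pooled in each group. The methods also describe the controls as wild-type mice given toxin, which differs from the labels. With 1 library in each group there is no estimate of the spread between animals, so no test between the libraries was possible, and every interval given covers counting error only.

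A dividing cell uses these genes in sequence. The Mcm proteins, loaded onto DNA with the help of Cdc6 and Cdt1, form the helicase that opens the DNA strands, Pcna is the ring that holds polymerases on DNA, and Rrm1, Rrm2 and Tyms supply nucleotides. Cyclins A and B (Ccna2, Ccnb1, Ccnb2) then activate the kinase Cdk1, Top2a untangles the copied chromosomes, and kinesins, aurora kinases and centromere proteins divide them, until Cdc20 and Ube2c mark the cyclins for destruction. In wounds, keratinocytes at the edge and fibroblasts of the granulation tissue are known to divide, while neutrophils have left the cell cycle.

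Cells that passed a minimum of 500 genes and a ceiling of 6% mitochondrial UMIs were kept, after removal of likely doublets: 7944 of 12058 cells in the PBS-labelled library and 6613 of 11031 in the DTX-labelled library, with medians of 9580 and 7286 UMIs. The libraries shared 37 barcodes, 13 of them among the kept cells. The study's text assigns the larger number of cells to the Mrc1-DTR mice, whereas by the labels it is the PBS library that is larger. The same text gives the Mrc1-DTR mice more immune cells and fewer fibroblasts and epithelial cells, which is the order of the DTX library by the labels. Mrc1, whose promoter drives the receptor, made up 65.4 CPM (a gene's UMIs divided by all UMIs of the cells named, on the usual CPM scale) of all kept cells in the PBS-labelled library and 268 CPM in the DTX-labelled library. Within macrophage-like cells it stood at 494 CPM (95% interval 479 to 509) and 431 CPM (424 to 439). Mrc1 was therefore higher in the library labelled as given toxin over all cells and lower by a small margin within macrophages, so the libraries are named here by their labels only, and every direction below rests on those labels. Cells were clustered without the cell-cycle genes and named from marker lists. Macrophage-like cells made up 21.6% of kept cells in the PBS-labelled library and 67.4% in the DTX-labelled library, fibroblast-like cells 38.6% and 9.93%, and epithelial-like cells 26.0% and 3.55%.

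The promoters of genes used in G2 and mitosis are known to carry CCAAT boxes and the CHR element, and those of S-phase genes sites for E2F factors. In the 250 bases before the start site, from RefSeq sequences of GRCm38.p6 that matched 33 of the 39 genes, the letters CCAAT were found on either strand in 17 of 19 G2/M genes (89.5%), in 10 of 14 S genes (71.4%) and in 34.5% of the 27025 genes with a promoter sequence. The CHR letters TTTGAA, or their variant with an inner C, TTCGAA, were found in 8 of the 19 G2/M genes (42.1%), in 2 of the 14 S genes (14.3%) and in 17.4% of all genes. An E2F match was taken as any of 4 strings, TTGGCGC and its variants TTCCCGC, then TTGCCGC, and lastly TTCGCGC, and was found in 8 S genes (57.1%), in 3 G2/M genes (15.8%) and in 7.97% of all genes. All 8 G2/M genes with a CHR match also had a CCAAT box, a pair found in 6.21% of all genes. A match is a stretch of letters, not a measured binding site. The windows of 3 G2/M genes that were higher in the fibroblast-like cells of the DTX-labelled library, and of 2 S genes that stayed within 1.5-fold there, are shown 5′ to 3′ on the strand of the gene, with these motifs in capitals. Top2a at chr11:99024190-99024439, Mki67 at chr7:135716380-135716629 and Ccnb2 at chr9:70421555-70421804 lie on the minus strand, as does Mcm6 at chr1:128359706-128359955, and Mcm5 at chr8:75109259-75109508 lies on the plus strand.
Top2a: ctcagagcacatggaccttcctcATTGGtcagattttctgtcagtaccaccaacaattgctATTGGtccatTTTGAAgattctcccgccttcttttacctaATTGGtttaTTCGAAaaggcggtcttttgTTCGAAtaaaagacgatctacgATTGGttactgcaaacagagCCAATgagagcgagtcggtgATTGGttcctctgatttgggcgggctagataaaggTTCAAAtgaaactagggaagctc
Mki67: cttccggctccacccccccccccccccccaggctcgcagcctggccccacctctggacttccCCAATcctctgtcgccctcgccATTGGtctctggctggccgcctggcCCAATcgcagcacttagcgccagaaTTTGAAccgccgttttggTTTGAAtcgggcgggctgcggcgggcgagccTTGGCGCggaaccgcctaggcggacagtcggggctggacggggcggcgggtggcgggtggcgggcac
Ccnb2: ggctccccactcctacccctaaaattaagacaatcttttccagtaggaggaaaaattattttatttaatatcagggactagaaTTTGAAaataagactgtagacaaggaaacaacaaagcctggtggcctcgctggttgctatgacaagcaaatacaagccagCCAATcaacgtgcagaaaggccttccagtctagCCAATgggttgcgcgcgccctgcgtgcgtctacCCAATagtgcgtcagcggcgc
Mcm5: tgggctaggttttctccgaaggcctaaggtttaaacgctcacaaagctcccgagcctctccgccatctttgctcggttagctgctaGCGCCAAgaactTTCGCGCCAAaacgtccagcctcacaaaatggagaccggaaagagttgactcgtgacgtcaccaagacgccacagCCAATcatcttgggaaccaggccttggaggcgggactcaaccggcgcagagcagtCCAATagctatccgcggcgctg
Mcm6: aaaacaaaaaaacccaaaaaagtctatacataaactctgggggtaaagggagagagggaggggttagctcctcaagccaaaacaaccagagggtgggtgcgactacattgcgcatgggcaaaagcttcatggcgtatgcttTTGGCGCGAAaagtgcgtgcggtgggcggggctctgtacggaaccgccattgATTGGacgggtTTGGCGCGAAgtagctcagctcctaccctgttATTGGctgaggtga
Top2a held 6 CCAAT and 4 CHR matches and Ccnb2 3 and 1, both without an E2F match, while Mcm5 and Mcm6 held 3 and 4 E2F matches and no CHR match. Mki67 held all 3 kinds. These windows were picked as examples, and other genes differed from them. Cenpa and Birc5, which had the highest ratios in fibroblast-like cells, had no CHR match, and Birc5 had no CCAAT match either. Among S genes within 1.5-fold there, Mcm2 had a CHR and a CCAAT match but no E2F match. Mcm3, Pcna, Tyms and Cdt1 had no E2F match.

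To compare classes at matched depth, each cell was thinned to 2000 UMIs, and a cell was called cycling when at least 3 different genes of the 38 S and G2/M genes had a UMI. Cells with fewer UMIs, 490 in the PBS-labelled library and 422 in the DTX-labelled library, were left out. The share of cycling cells was 5.19% (387 of 7454 cells) in the PBS-labelled library and 4.10% (254 of 6191) in the DTX-labelled library, against 19.4% and 24.0% without thinning. The 2 libraries thus stood in the opposite order without thinning, where the cells under 2000 UMIs were also counted. The cause of this change was not tested.

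Not every gene was held to cycling cells. Calling cells without the gene in question, 95.7% of Ccna2 UMIs in the PBS-labelled library and 84.6% in the DTX-labelled library lay in cycling cells. For Mki67, a marker of proliferation, the shares were 80.0% and 80.5%, for Pclaf, a partner of Pcna, 81.2% and 83.9%, and for Birc5, which encodes survivin, 82.2% and 72.3%. Stmn1, which was no part of the call, had 60.1% and 61.5% of its UMIs in cycling cells. By contrast, Pcna had 13.5% and 8.01%, the licensing factor Cdt1 12.4% and 5.28%, and Cenpa, the histone H3 variant of centromeres, 14.2% and 5.14%. These 3 genes were the only ones below 20% in both libraries. Shares of cycling cells are therefore also given without them, from the remaining 35 genes, a choice made after these values were seen. Over all kept cells the shares were then 4.16% (310 of 7454) in the PBS-labelled and 2.60% (161 of 6191) in the DTX-labelled library. The log2 ratio was -0.68 (-0.95 to -0.41).

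**Figure D1:**
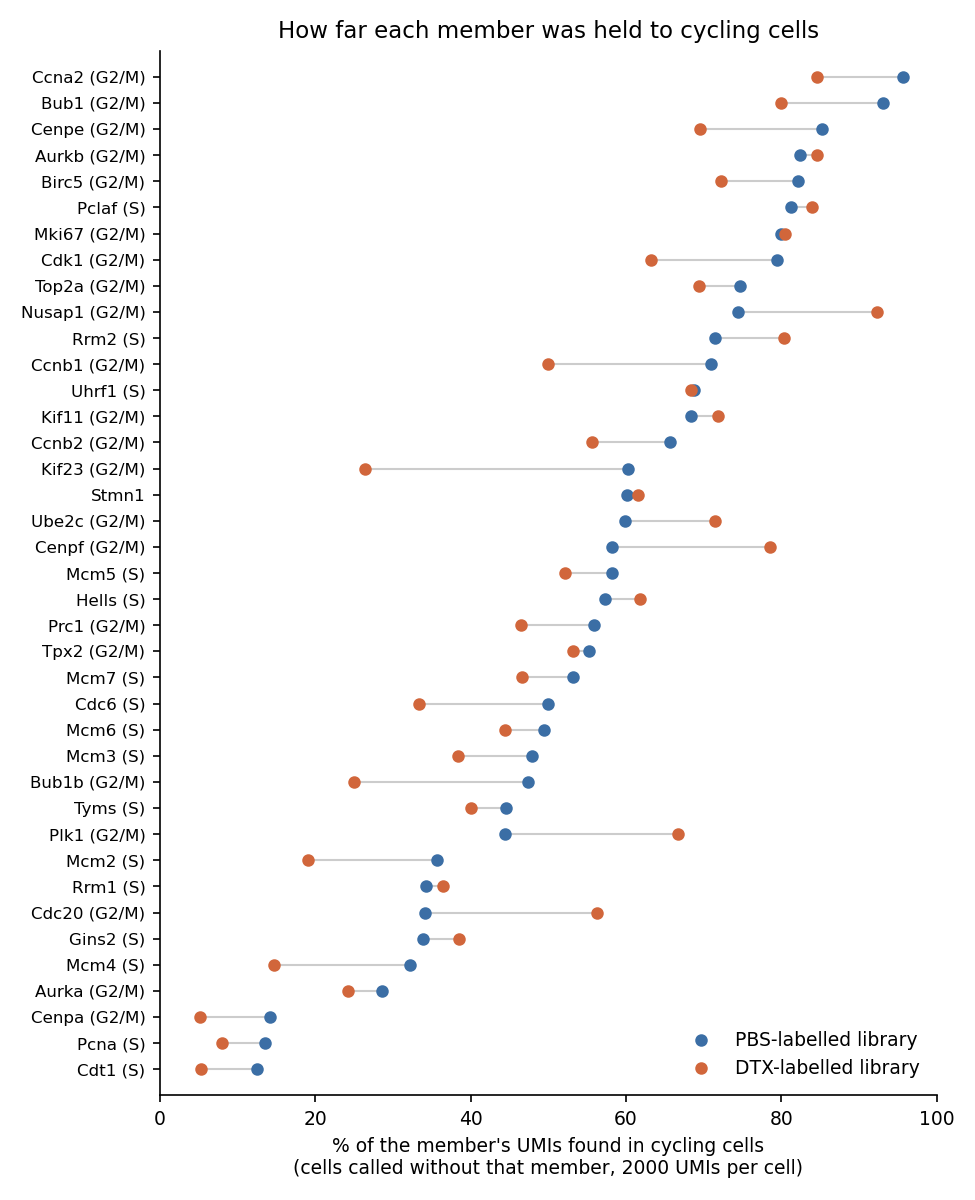
Share of the UMIs of each of the 39 genes (y axis) that lay in cycling cells (x axis, %), with cells thinned to 2000 UMIs and called without the gene itself; blue points are the PBS-labelled and orange points the DTX-labelled library. Pcna, Cdt1 and Cenpa sit at the left, between 5.14% and 14.2%, and Ccna2 at the right.

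Cenpa was spread through the immune classes. At 2000 UMIs a Cenpa UMI was present in 24.8% of macrophage-like cells of the PBS-labelled library (370 of 1494) and in 25.7% of the DTX-labelled library (1113 of 4324). In dendritic-like cells the shares were 23.1% and 26.3%, and in Langerhans-like cells 29.5% and 27.8%. In fibroblast-like cells they were 1.81% and 4.0%, and in epithelial-like cells 1.53% and 0.873%. Neutrophil-like cells, which should not divide, held a Cenpa UMI in 8.14% of cells (14 of 172, 95% interval 4.52 to 13.3%) of the DTX-labelled library. Their median depth before thinning was 1874 UMIs, against 6738 in macrophage-like cells, and only their deeper cells could be thinned. The share in macrophage-like cells lay above that level and the share in fibroblast-like cells did not. Cenpa was present in all macrophage-like clusters of both libraries. In the DTX-labelled library its share was lowest, 15.7% of cells, in a cluster named by Klf2 and other early response genes. It was highest, 35.4%, in a cluster led by Il1r2 and Ramp3 with MHC class II genes.

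Mki67 gave another order of classes. It was found in 1.00% of macrophage-like cells of the PBS-labelled library (15 of 1494) and 0.278% of the DTX-labelled library (12 of 4324), in 4.30% and 3.43% of dendritic-like cells, and in 31.5% and 25.0% of NK- or T-like cells. None of 172 neutrophil-like cells of the DTX-labelled library held it, which allows a share of up to 1.74% when 3 cells are taken as the limit of a count of 0 (the Clopper-Pearson limit is 2.12%). Cenpa is annotated at chr5:30666777-30674830 on the plus strand (GRCm38, GENCODE M21), and no other annotated exon overlaps its exons, so its counts are not shared with an overlapping gene there. For 7 other genes, Mcm7, Gins2, Ccna2, Ube2c, Nusap1, Cdc20 and Prc1, exons overlap those of a counted gene on the other strand. Ccnb1, Ccnb2, Stmn1, Tyms and Pcna have processed pseudogenes by name, and their counts are uncertain to that extent.

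**Figure D2:**
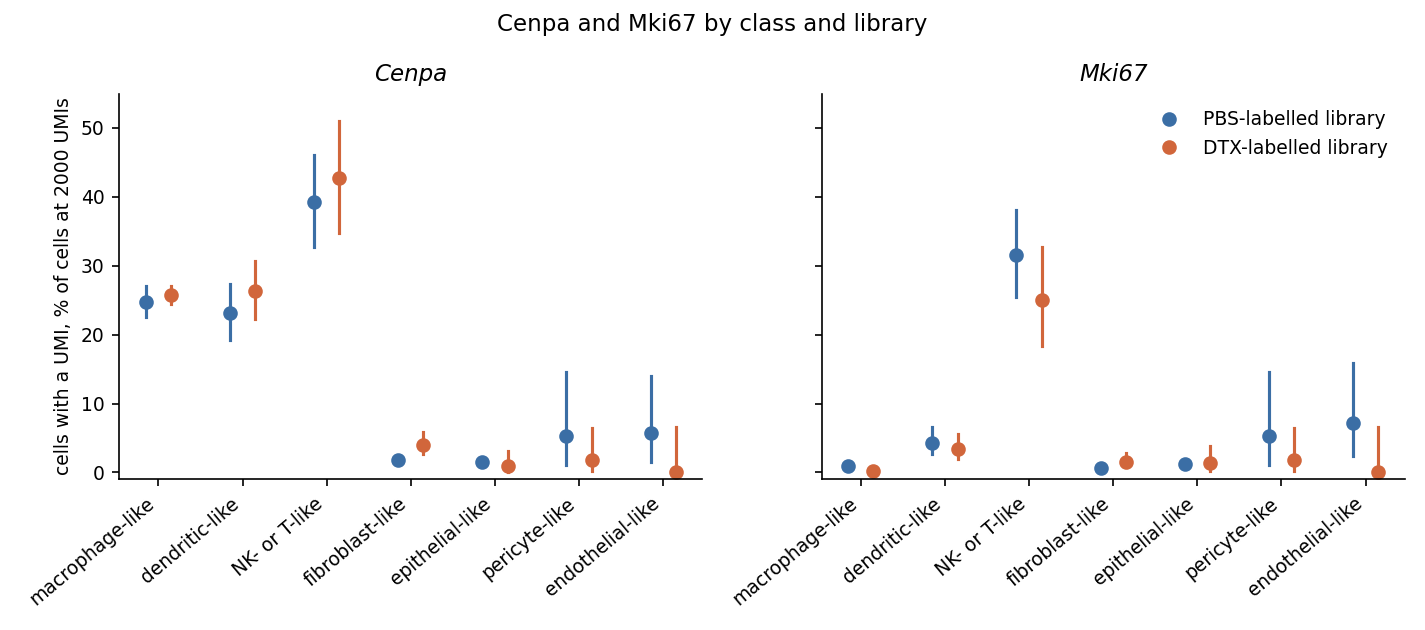
Share of cells with at least 1 UMI of Cenpa (left) and Mki67 (right) at 2000 UMIs per cell, by class and library; points are shares (y axis, %) and lines 95% Clopper-Pearson intervals. Cenpa stands near 25% in macrophage-like and dendritic-like cells of both libraries and at 4.0% or less in fibroblast-like and epithelial-like cells, whereas Mki67 stands at 1.00% or less in macrophage-like cells.

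Macrophage-like cells had few clearly cycling cells in either library. From 38 genes, 2.61% of cells were cycling in the PBS-labelled library (39 of 1494, interval 1.86 to 3.55%) and 2.41% in the DTX-labelled library (104 of 4324, 1.97 to 2.91%), a log2 ratio of -0.12 (-0.64 to 0.41). Without Pcna, Cdt1 and Cenpa the shares were 0.602% (9 cells, 0.276 to 1.14%) and 0.671% (29 cells, 0.450 to 0.962%), a log2 ratio of 0.15 (-0.92 to 1.23). The interval leaves room for a ratio near 2-fold in either direction. Of the cycling macrophage-like cells, 31 of 39 and 75 of 104 had exactly 3 of the genes. A second list of 66 other cell-cycle genes also marked 23.1% and 24.0% of them, against 70.2% and 76.0% of cycling fibroblast-like cells and 94.7% and 94.0% of cycling NK- or T-like cells. Among cells not called cycling it marked 6.74% and 6.82% of macrophage-like, 2.01% and 3.20% of fibroblast-like and 35.6% and 30.4% of NK- or T-like cells.

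The sums of S and G2/M UMIs in macrophage-like cells were led by the spread genes. Cenpa gave 77.7% of their G2/M UMIs in the PBS-labelled library (1378 of 1773) and 78.5% in the DTX-labelled library (5191 of 6610), and Pcna gave 48.1% and 47.2% of their S UMIs. Cenpa stood at 164 and 168 CPM, a log2 ratio of 0.04 on the CPM + 1 scale, which is used for all gene ratios here. Pcna stood at 104 and 90.4 CPM (log2 ratio -0.20). Neither differed by 1.5-fold, the size past which a gene is counted as different.

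In macrophage-like cells 29 genes reached 50 UMIs over both libraries. Of them, 2 were higher past 1.5-fold in the DTX-labelled library, beside 6.64% of all 10203 genes, and 2 were lower, beside 7.65%. Both counts were near those of all genes. Stmn1 was lower, with 46.6 CPM in the PBS-labelled and 26.6 CPM in the DTX-labelled library (log2 ratio -0.79). Mki67 was lower too, with 5.10 and 3.04 CPM (-0.60), and Pclaf, with 8.54 and 6.07 CPM (-0.43), was the next below. The 2 genes of cyclin B were higher, from few UMIs: Ccnb1 had 4 UMIs (0.475 CPM) and 52 UMIs (1.68 CPM), a log2 ratio of 0.86, and Ccnb2 had 8 (0.949 CPM) and 87 (2.81 CPM), a log2 ratio of 0.97. Ccna2, with 16 UMIs (1.90 CPM) and 27 UMIs (0.872 CPM), lay the other way at -0.63 and had too few UMIs to be counted. Birc5, at 2.49 and 4.04 CPM, had a log2 ratio of 0.53. The helicase genes stayed within 1.5-fold, with log2 ratios of -0.37 for Mcm2, -0.32 for Mcm3, 0.01 for Mcm4, 0.04 for Mcm5, 0.05 for Mcm6 and 0.20 for Mcm7. Top2a (9.61 and 7.21 CPM, -0.37), Rrm2 (-0.43) and Cdk1 (-0.22) did as well. The median over the 29 genes was -0.01, beside 0.06 for all genes of the class.

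Within the macrophage-like class the cycling cells were not evenly placed. In the DTX-labelled library an unnamed cluster led by Ctsk, Acp5 and Tsc22d1, with Stmn1 also among its 10 leading genes, held 15 cycling cells of 194 (7.73%), while the largest cluster, named by Vcan, held 13 of 1294 (1.00%). In the PBS-labelled library the largest cluster, led by Ccl8 and Mid1, held 31 of 1039 (2.98%). Its leading genes included MHC class II genes and also C1qa, Pltp and Selenop. It is not the cluster with the highest Cenpa share in the DTX-labelled library. The 2 libraries filled different clusters, so the shares of the class compare unlike sets of macrophages. With the makeup of the PBS-labelled library and the cluster shares of the DTX-labelled library the share would be 4.96%. The other way round it would be 1.5%. The first value rests mostly on 10 of 174 DTX-labelled cells (2.79 to 10.3%) in the cluster that is largest in the PBS-labelled library. Shares of 0 of 40, 0 of 7 and 0 of 15 PBS-labelled cells enter the second, in the Vcan, Cd9 and Ctsk clusters. Their intervals reach 8.81%, 41.0% and 21.8%. Both values count calls from Pcna, Cdt1 and Cenpa and have no interval, so they cannot show whether the libraries differ at equal makeup.

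Fibroblast-like cells had a higher share of cycling cells in the DTX-labelled library. It was 1.58% in the PBS-labelled library (47 of 2982, interval 1.16 to 2.09%) and 3.85% in the DTX-labelled library (25 of 650, 2.50 to 5.63%), a log2 ratio of 1.29 (0.60 to 1.98). Without Pcna, Cdt1 and Cenpa the shares were 1.24% (37 cells) and 2.92% (19 cells), a log2 ratio of 1.24 (0.45 to 2.02). Both intervals lie above 0, but whether other mice would differ in the same way cannot be read from 1 library each. Over 10 further draws of the thinning, the shares averaged 1.46% (1.21 to 1.68%) and 3.86% (3.54 to 4.15%). The draws reuse the same cells, so these ranges show only the effect of removing UMIs at random and not the spread between cells or mice. Without thinning they were 12.3% and 25.0%.

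**Figure D3:**
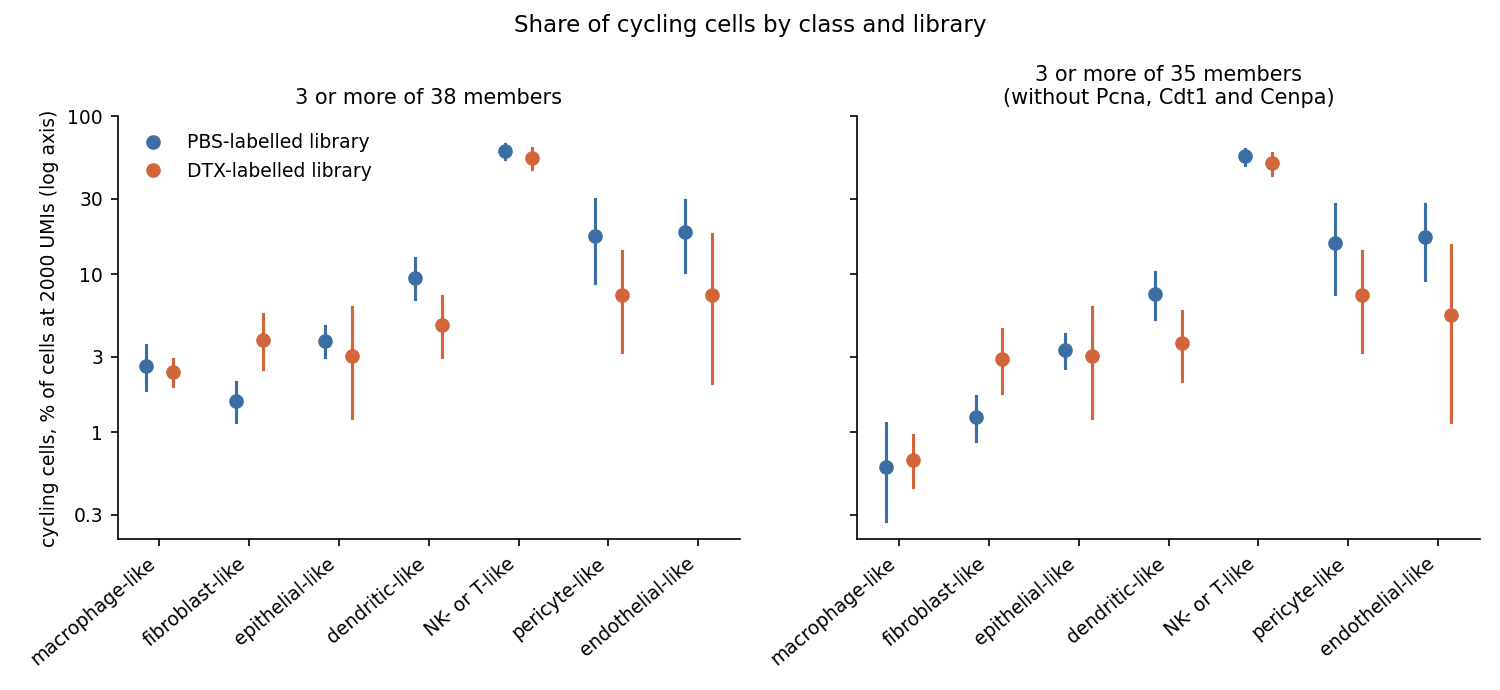
Share of cycling cells by class (y axis, % of cells at 2000 UMIs, log axis), called from 38 genes and from the 35 left without Pcna, Cdt1 and Cenpa; points are shares and lines 95% Clopper-Pearson intervals for the PBS-labelled (blue) and DTX-labelled (orange) library. NK- or T-like cells stand above 50% in both libraries, fibroblast-like cells are higher in the DTX-labelled library, and macrophage-like cells drop from 2.61% and 2.41% to 0.602% and 0.671%.

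All 35 genes with at least 50 UMIs in fibroblast-like cells had a log2 ratio above 0, and 17 were past 1.5-fold higher, beside 7.32% of all 11811 genes. None was past 1.5-fold lower, beside 3.94%. The median over the 35 genes was 0.56, against 0.12 for all genes of the class. The G2/M genes carried most of it: 14 of 18 were past 1.5-fold higher, with a median of 0.90, against 2 of 16 S genes, with a median of 0.36, and Stmn1.

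Genes of mitosis were furthest apart. Cenpa stood at 10.1 CPM in the PBS-labelled library and 39.6 CPM in the DTX-labelled library, a log2 ratio of 1.87, but its share of fibroblast-like cells lay below that of neutrophil-like cells, and the part of free RNA in this value was not tested. Birc5 stood at 5.51 and 19.7 CPM (193 and 191 UMIs, log2 ratio 1.66), Ccnb2 at 4.74 and 17.0 CPM (1.65), and Ccna2 at 1.80 and 6.79 CPM (1.48). Ccnb1, at 1.40 and 3.09 CPM, had a log2 ratio of 0.77. All 3 mitotic cyclin genes of the list were thus past 1.5-fold higher. Their partner Cdk1, at 2.63 and 5.56 CPM, had a log2 ratio of 0.85. Top2a stood at 5.34 and 11.5 CPM (0.98) and Mki67 at 5.88 and 12.3 CPM (0.96). The kinesin genes Kif11 (1.08) and Kif23 (0.79), the spindle gene Tpx2 (1.01) and the destruction genes Cdc20 (1.10) and Ube2c (0.75) were past 1.5-fold higher too. So was Cenpf (0.84), a centromere gene. Stmn1 stood at 31.0 and 71.7 CPM (1.18). In fibroblast-like cells 65.4% and 70.8% of the Birc5 UMIs and 63.3% and 87.5% of the Top2a UMIs lay in cycling cells.

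S-phase genes stood closer together. Pclaf, at 8.77 and 18.7 CPM (log2 ratio 1.01), and Mcm4, at 5.43 and 9.57 CPM (0.72), were past 1.5-fold. The other helicase genes were not, with log2 ratios of 0.29 for Mcm2, 0.29 for Mcm3, 0.11 for Mcm5, 0.35 for Mcm6 and 0.15 for Mcm7. Nor were Pcna, at 37.8 and 49.4 CPM (0.38), Rrm2 (0.39), Hells (0.14) or Bub1b, a G2/M gene (0.10), the last 2 being among the 3 lowest with Mcm5.

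Summed over the 21 G2/M genes other than Cenpa, fibroblast-like cells held 56.6 CPM in the PBS-labelled library and 133 CPM in the DTX-labelled library, a log2 ratio of 1.22 (interval of the UMI ratio 1.13 to 1.34). The 14 S genes other than Pcna and Cdt1 held 73.4 and 107 CPM, a log2 ratio of 0.54 (0.44 to 0.65). The G2/M interval lies above the S interval, but both treat UMIs as independent. In thinned fibroblast-like cells of the DTX-labelled library, 25 cycling cells held 48.1% of the UMIs of the S and G2/M genes. UMIs of different genes thus often came from the same cells, and the intervals may be too narrow. Their separation is therefore no test of a difference between the 2 lists.

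Most cycling fibroblast-like cells belonged to a cluster named by Plac8 and other markers. It held 41 of the 47 cycling cells of the PBS-labelled library (4.76% of its 861 cells) and 19 of the 25 of the DTX-labelled library (6.48% of its 293 cells). This cluster held 872 of the 3064 fibroblast-like cells in the PBS-labelled library and 296 of 657 in the DTX-labelled library. Within it the summed S genes of the full list stood at 178 and 199 CPM (log2 ratio 0.16, 0.06 to 0.27) and the G2/M genes at 143 and 251 CPM (0.81, 0.71 to 0.91). With the cluster makeup of the PBS-labelled library and the cluster shares of the DTX-labelled library, the share of cycling cells would be 2.33%, and the other way round 2.35%. Both lie between the measured 1.58% and 3.85%.

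A small fibroblast-like cluster led by Cd74, Lyz2 and H2-Aa, which are genes of macrophages and antigen presentation, held 0 of 32 and 5 of 48 cycling cells. Without it the shares were 1.59% and 3.32% (log2 ratio 1.06, 0.32 to 1.80). Among all cycling fibroblast-like cells, 5 of 10 macrophage markers were seen in each library, at a summed 95.7 CPM in the PBS-labelled library (110 CPM in the other fibroblast-like cells) and 540 CPM in the DTX-labelled library (363 CPM). The median cycling cell held 0 UMIs of them in both libraries. Fibroblast-like cells with a UMI of En1, a gene of a scar-forming dermal lineage, were cycling in 12 of 685 cells (1.75%) of the PBS-labelled library and 1 of 122 (0.820%) of the DTX-labelled library, and those without in 35 of 2297 (1.52%) and 24 of 528 (4.55%).

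Epithelial-like cells had similar shares of cycling cells but differed in which genes were higher. The share was 3.79% (77 of 2032) in the PBS-labelled library and 3.06% (7 of 229) in the DTX-labelled library, a log2 ratio of -0.31 (-1.41 to 0.79). With 7 cycling cells in the DTX-labelled library, the interval includes ratios past 1.5-fold in both directions. Over 10 further draws of the thinning, the shares averaged 3.91% (3.40 to 4.18%) and 3.62% (3.06 to 4.37%), closer together than in the main draw. Of 34 genes with at least 50 UMIs, 6 were past 1.5-fold higher, beside 8.49% of all 10288 genes, and 5 were lower, beside 5.25%.

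All 5 lower genes act in G2 or mitosis. Ube2c stood at 18.1 CPM (515 UMIs) and 8.50 CPM (33 UMIs), a log2 ratio of -1.01. Kif23 had a log2 ratio of -0.85, and Ccnb2 stood at 4.74 and 2.32 CPM (-0.79). Prc1 and Cdc20 both had -0.60. With no doublets removed Ube2c alone stayed past 1.5-fold lower (-1.03), and the summed G2/M genes of the class turned from -0.09 to 0.21. Doublets had been taken out by different rules in the 2 libraries. The counts of the DTX-labelled library behind Kif23 and Ccnb2 were 6 and 9 UMIs. Among the 6 higher genes were 4 S genes: Uhrf1, which carries DNA methylation through replication, at 4.28 and 7.98 CPM (0.77), Cdt1 at 6.53 and 11.1 CPM (0.68), Mcm6 (0.61) and Mcm3 (0.60). The other two were G2/M genes, Ccna2 at 3.51 and 6.44 CPM (0.72) and Mki67 at 11.4 and 18.5 CPM (0.65). The remaining helicase genes had log2 ratios of 0.29 (Mcm2), 0.16 (Mcm4), 0.55 (Mcm5) and 0.15 (Mcm7). Within 1.5-fold were also Top2a at 19.7 and 26.5 CPM (0.41), Cdk1 (0.40), Rrm2 (0.32), Pcna (0.02), Stmn1 at 104 and 105 CPM (0.02) and Ccnb1 (-0.09).

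Most cycling epithelial-like cells lay in a cluster that carried no single name. It held 54 of the 77 cycling cells in the PBS-labelled library (15.8% of 341 cells) and 5 of the 7 in the DTX-labelled library (11.6% of 43). Among its leading genes were the chemokine genes Ccl2, Cxcl1 and Cxcl2 and the fibroblast genes Dcn, Col1a2 and Col1a1. Krt14, a keratin of basal keratinocytes, stood at 6836 and 5397 CPM in it. Of the 6 basal markers, Krt14 among them, 0 were raised there over the median of the epithelial-like clusters. In the cluster named by basal markers 12 of 437 (2.75%) and 0 of 17 cells were cycling, and in the spinous one, of maturing keratinocytes, 2 of 709 (0.282%) and 0 of 57. Without the unnamed cluster that held most of them and a smaller one led by Lyz2 and Cd74, the share of cycling epithelial-like cells was 1.20% (20 of 1666) and 1.18% (2 of 170), a log2 ratio of -0.03 (-2.11 to 2.06). In the cells left, 8 of 26 genes were past 1.5-fold higher and 6 lower, with a median of 0.34 against 0.05 over all genes. The shares of all genes past 1.5-fold in this smaller set are not given here, so the 2 counts stand without a background. In the PBS-labelled library 10 fibroblast markers summed to 1117 CPM in cycling and 697 CPM in other epithelial-like cells, with 9 of the 10 seen and a median of 1 UMI in both. In the DTX-labelled library they summed to 71.4 and 320 CPM.

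Dendritic-like cells had lower shares of cycling cells in the DTX-labelled library. From 38 genes, 9.5% (42 of 442) and 4.81% (21 of 437) were cycling, a log2 ratio of -0.98 (-1.71 to -0.25). From 35 genes the shares were 7.47% (33 cells) and 3.66% (16 cells), a log2 ratio of -1.03 (-1.87 to -0.19). Of 26 genes with at least 50 UMIs, 14 were past 1.5-fold lower, beside 5.13% of all 7817 genes, and none was higher, beside 4.93%. With cell-cycle genes kept in the clustering, which left 348 and 359 cells in the class, the shares were 3.16% and 1.95% (log2 ratio -0.70, -2.05 to 0.65). Of 13 genes 2 were then lower, with a median of -0.13 over the 13 and 0.05 over all genes. The summed G2/M genes turned from -0.34 to 0.20. In that clustering a cluster of 101 and 78 cells led by Cst3, H2afz and Pkib was named Langerhans-like and so was not in the class. In the main clustering a cluster of 74 and 56 cells led by Cst3, Ncoa7 and Pkib was in the class, and held 13 cycling cells of 73 and 7 of 56. How many cells these clusters shared was not tested.

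Ube2c had the lowest ratio of these, with 37.4 and 10.2 CPM (-1.78), followed by Nusap1 (-1.52), Ccnb2 (-1.27), Mcm2 (-1.11) and Hells (-1.09). Mki67 stood at 40.1 and 25.4 CPM (-0.64), Pclaf at 87.7 and 46.3 CPM (-0.91), and Stmn1 at 181 and 97.7 CPM (-0.88). Cenpa, at 142 and 178 CPM (0.32), went the other way. It gave 36.3% of the G2/M UMIs of the class in the PBS-labelled library and 57.5% in the DTX-labelled library.

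Type 1-like dendritic cells held 16 cycling cells of 74 (21.6%) and 11 of 62 (17.7%). The few type 2-like cells held 7 of 26 (26.9%) and 1 of 13 (7.69%). The mature-like cells held 3 of 73 and 1 of 68. The largest cluster of the class, 279 and 297 cells, had Cd14, C1qb and C1qa, genes of macrophages, among its 10 leading genes and held 16 of 269 (5.95%) and 8 of 294 (2.72%). Without it the shares of the class were 15.0% and 9.09%, a log2 ratio of -0.73 with an interval of -1.63 to 0.18 that includes 0, and 3 of 20 genes rather than 14 of 26 were past 1.5-fold lower. At a finer clustering, which moved part of the class to Langerhans-like cells, 7 of 17 genes were lower. The medians of the 20 and the 17 genes were -0.36 and -0.41, against 0.04 and 0.03 over all genes. The shares of all genes past 1.5-fold in these smaller sets of dendritic-like cells are not given here, nor for the 13 genes above.

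NK- or T-like cells had the highest share of cycling cells of all classes compared, and the interval of the ratio between the libraries included equal shares. They were 2.94% and 2.46% of the cells at 2000 UMIs and 34.1% and 32.7% of the cycling cells. Without Pcna, Cdt1 and Cenpa they were 39.4% and 47.8% of the cycling cells. Macrophage-like cells then made up 2.90% and 18.0% of the cycling cells, against 10.1% and 40.9% with these genes. The share was 60.3% in the PBS-labelled library (132 of 219) and 54.6% in the DTX-labelled library (83 of 152), a log2 ratio of -0.14 (-0.40 to 0.12), and 55.7% and 50.7% from 35 genes. None of 37 genes was past 1.5-fold either way, beside 5.89% of all 6363 genes higher and 3.76% lower, and the log2 ratios ran from -0.58 (Cdc20) to 0.51 (Cenpf). The median of the 37 was 0.07, against 0.05 over all genes. In a cluster led by the granzyme genes Gzma and Gzmc 64.6% and 56.1% of cells were cycling, and in one led by Cd3g and Trdc, of T cells, 39.5% and 48.3%.

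Endothelial-like cells were few and had lower values in the DTX-labelled library. The class held 73 and 58 kept cells, and 80 and 78 with no doublets removed. More of its cells were lost in the DTX-labelled library. Doublets were taken out by different rules, but the cause of this loss was not tested. The values here are from kept cells. The share of cycling cells was 18.6% (13 of 70) in the PBS-labelled library and 7.41% (4 of 54) in the DTX-labelled library, a log2 ratio of -1.33 (-2.86 to 0.21). Of 18 genes, 15 were past 1.5-fold lower, beside 9.15% of all 5025 genes, and none higher, beside 8.78%. Mki67 had 69 UMIs (65.8 CPM) and 3 UMIs (3.80 CPM), a log2 ratio of -3.80 with an interval of the UMI ratio from -6.43 to -2.51. Ube2c (-3.71), Birc5 (-3.32) and Tpx2 (-2.89) lay near it, and Pcna (-0.38) and Mcm6 (-0.35) at the other end. At 2000 UMIs per cell the 13 and 4 cycling cells held 93 of 127 and 18 of 35 UMIs of the 38 genes, so that UMIs of different genes often came from the same few cells and are not independent of each other.

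Pericyte-like cells were cycling in 17.5% (10 of 57) and 7.34% (8 of 109), a log2 ratio of -1.26 (-2.52 to 0.0019), and 2 of 17 genes were past 1.5-fold lower, beside 7.55% of 5646 genes, with none higher beside 8.52%. Langerhans-like cells (18 of 122 and 2 of 36) and mast-like cells (9 of 29 and 0 of 18) were too few in the DTX-labelled library to be compared. In neutrophil-like cells of the DTX-labelled library 0 of 172 were cycling at 2000 UMIs, which by the same limit of 3 cells allows up to 1.74%. At 1000 UMIs, where more of them could be used, 1 of 99 and 0 of 426 were called. The call thus gave almost no cycling cells in a class that has left the cycle, although only 2 neutrophil-like cells of the PBS-labelled library reached 2000 UMIs. The spread genes were also scarcer there. In the DTX-labelled library Pcna, Cdt1 and Cenpa were found in 4.07%, 2.91% and 8.14% of neutrophil-like cells. In macrophage-like cells the shares were 16.8%, 5.48% and 25.7%. The neutrophil-like cells therefore cannot show how many calls in macrophage-like cells are false.

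**Figure D4:**
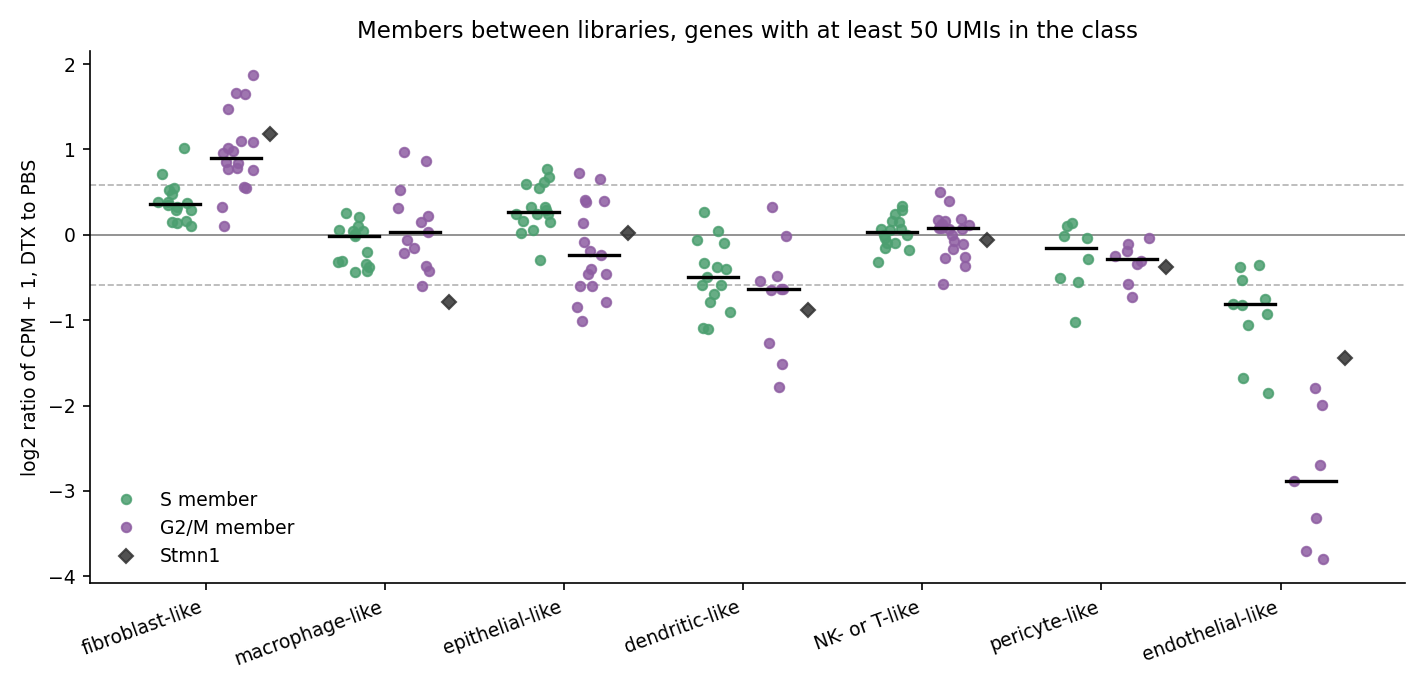
Log2 ratio of CPM + 1 between the DTX-labelled and the PBS-labelled library (y axis) for each gene with at least 50 UMIs, by class; points are genes, coloured by S, G2/M and Stmn1, and the dashed lines mark 1.5-fold. In fibroblast-like cells every gene lies above 0 and the G2/M genes lie highest, whereas in dendritic-like cells 23 of 26 lie below 0 and in NK- or T-like cells all lie within the lines.

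The balance of S and G2/M UMIs was taken over all UMIs of a class, so that deeper cells weighed more. Its intervals treat UMIs as independent, although UMIs of different genes often came from the same cells. Over the 35 genes, S UMIs made up 56.5% of S and G2/M UMIs in fibroblast-like cells of the PBS-labelled library (2571 and 1981 UMIs) and 44.6% in the DTX-labelled library (1040 and 1294 UMIs). The difference was -11.9 points (-14.4 to -9.44). With all 38 genes the shares were 64.3% and 49.1% (-15.2 points). With cells thinned to 2000 UMIs they were 59.4% and 45.2% from 35 genes (-14.2 points, -21.4 to -6.81) and 67.3% and 54.1% from 38 genes (-13.1 points). S UMIs were the larger part in the PBS-labelled library under each of these counts, while in the DTX-labelled library they were the larger part from 38 genes at 2000 UMIs and the smaller part otherwise. Among cycling cells alone, 16 of 47 (34.0%, 20.9 to 49.3%) and 6 of 25 (24.0%, 9.36 to 45.1%) leaned to S, with 26 and 16 leaning to G2/M. These intervals overlap. Their S and G2/M UMIs were 124 and 167 in the PBS-labelled and 62 and 112 in the DTX-labelled library, a difference of -6.98 points whose interval is not given here. At 2000 UMIs per cell, cycling cells held 29.3% and 48.1% of the UMIs of the 38 genes, and the rest lay in cells not called cycling.

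Epithelial-like cells lay the other way, with S shares of 49.9% and 57.1% from 35 genes (7.16 points, 3.88 to 10.4). The difference was 12.1 points at 2000 UMIs per cell, and with no doublets removed it was 4.83 points (1.85 to 7.78) from 35 genes and 1.92 points (-0.634 to 4.43) from 38. In their cycling cells 25 of 77 and 5 of 7 leaned to S. In endothelial-like cells the S share was 45.7% and 76.3% (30.7 points, 24.9 to 35.8; 15.1 points with no doublets removed), and in the few Langerhans-like cells 44.1% and 71.9%. In all 3 classes the summed G2/M genes were lower relative to the S genes in the DTX-labelled library. Langerhans-like cells were below the 50 cells set for a comparison there. From 38 genes that library held 7 cycling epithelial-like, 4 endothelial-like and 2 Langerhans-like cells.

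NK- or T-like cells were balanced, with 49.8% and 50.1% (0.23 points, -1.69 to 2.15), and macrophage-like cells stood at 62.9% and 61.9% (-0.96 points, -4.22 to 2.37). Of the 132 and 83 cycling NK- or T-like cells, 71 (53.8%) and 33 (39.8%) leaned to S. For dendritic-like cells the sign turned with the genes counted: 51.0% and 49.0% from 38 genes (-2.00 points), and 56.6% and 62.6% from 35 genes (6.02 points, 2.97 to 9.04). At 2000 UMIs per cell the 35 genes gave 2.20 points (-6.09 to 10.3).

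**Figure D5:**
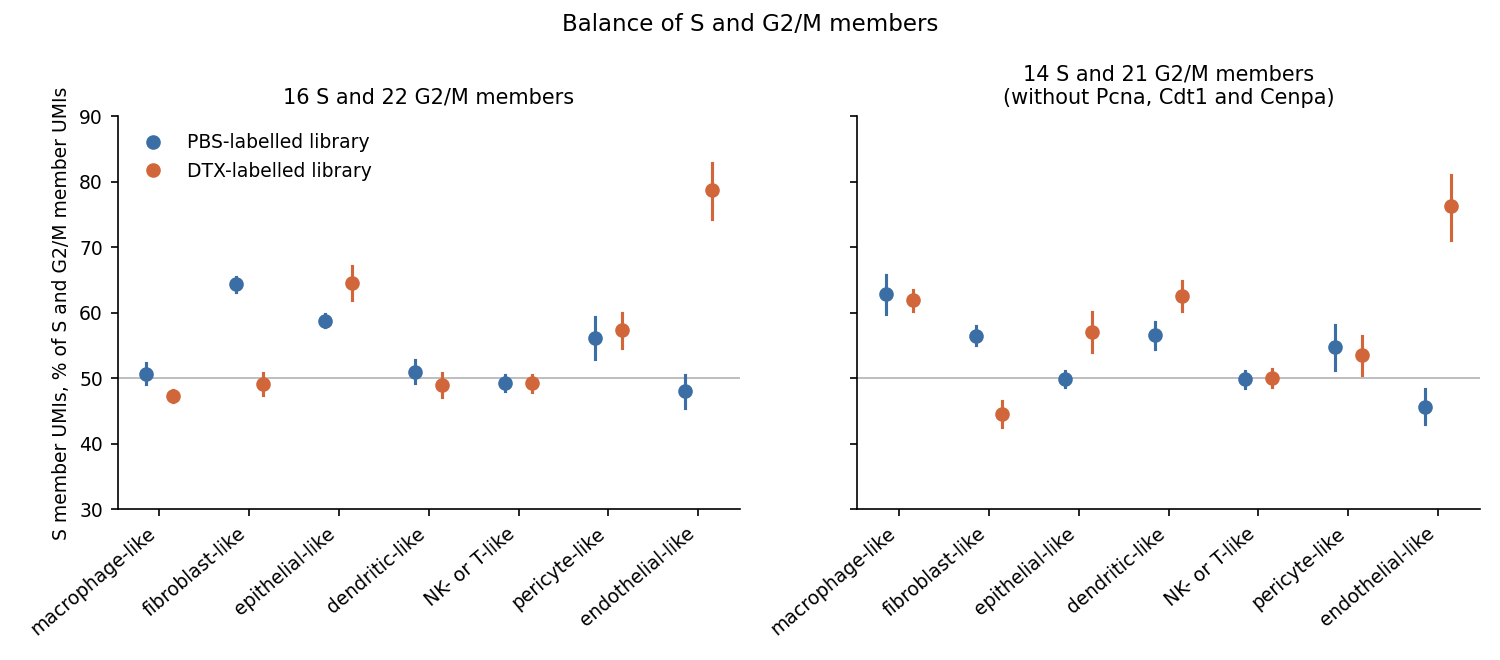
S UMIs as a share of S and G2/M UMIs (y axis, %) by class and library, from 38 genes and from the 35 left without Pcna, Cdt1 and Cenpa; points are shares and lines 95% Clopper-Pearson intervals. Fibroblast-like cells are lower in the DTX-labelled library in both panels, endothelial-like cells are higher in both, and NK- or T-like cells stay at about 50%.

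Regulators of the cycle were looked at as a list of 36 genes outside the 39. In fibroblast-like cells 5 of the 31 with enough UMIs were past 1.5-fold higher, beside 7.32% of all genes of the class, and 1 lower, beside 3.94%. The higher ones were Cdkn2a, which encodes the inhibitors p16 and p19ARF, at 1.71 and 7.10 CPM (log2 ratio 1.58), the kinase gene Wee1, which holds Cdk1 in check (0.86), Foxm1, a factor that turns on G2/M genes (0.81), the licensing inhibitor gene Gmnn (0.73) and the cyclin gene Ccnd3 (0.68). Cdk6, the kinase partner of D cyclins, was lower at 97.9 and 60.8 CPM (-0.68). In macrophage-like and epithelial-like cells the counts were near or below those of all genes. In macrophage-like cells 1 of 28 was higher, beside 6.64% of all genes, Ccnd3 at 10.7 and 20.7 CPM (0.89), and 2 were lower, beside 7.65%, Cdkn1c (-0.73) and Wee1 (-0.61). In epithelial-like cells 1 of 28 was higher, beside 8.49%, Lin9 (0.60), and none lower, beside 5.25%. In NK- or T-like cells 3 of 26 were higher, beside 5.89%: Cdkn2c (0.69), Ccne2 (0.63) and Cdc25b (0.59). There 1 was lower, beside 3.76%, Lin9 (-0.61).

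Cdkn1a, the gene of the inhibitor p21, was alike in the libraries, at 962 and 959 CPM in macrophage-like, 253 and 264 CPM in fibroblast-like and 1214 and 1280 CPM in epithelial-like cells. The second list of 66 cell-cycle genes gave 25 higher and 0 lower of 46 in fibroblast-like cells, 2 and 3 of 38 in macrophage-like cells, 3 and 6 of 51 in epithelial-like cells and 1 and 10 of 29 in dendritic-like cells. Over all genes the shares higher and lower were 7.32% and 3.94%, 6.64% and 7.65%, 8.49% and 5.25%, and 4.93% and 5.13% in the same order of classes, so the counts in macrophage-like cells were near those of all genes, and the higher count in epithelial-like cells was below. Its genes were read in the same cells and are no independent sample of them.

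The total was also worked out with class makeup and class shares taken from different libraries. The values here include Pcna, Cdt1 and Cenpa in the call and are not given without them. With the class makeup of the PBS-labelled library and the class shares of the DTX-labelled library, 4.96% of cells would be cycling, and the other way round 4.93%, against the measured 5.19% and 4.10%. The swapped values have no interval, so they cannot show what part of the difference goes with makeup.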

How the data were processed

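The authors deposited raw UMI counts, a whole-number matrix of genes and cells for each library, made from Chromium 3′ v3 reads against mm10 with Cell Ranger (version 6.1.1 in the submitters' processing notes, an earlier version in the study's methods), and no count was normalized before deposit. There was 1 library per group, and no column of another series was used. Likely doublets were found with Scrublet at an expected rate of 8%. It called 382 cells in the PBS-labelled library and 0 in the DTX-labelled library, where the 575 cells of the highest scores (8%) were removed instead.

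Cells were clustered in Seurat 5.3.0 (R 4.3.3) on 2000 variable genes without cell-cycle genes, with no integration, and named from marker lists. Classes with at least 50 kept cells in both libraries were compared. CPM values are a gene's UMIs divided by all UMIs of a class, on the usual CPM scale, with 1 CPM added before log2 and at least 50 UMIs required over both libraries. Intervals are 95% Clopper-Pearson for shares (a share of 0 is given the limit that 3 counts set), exact Poisson for CPM, exact conditional binomial for ratios of UMIs, Katz for ratios of shares and Newcombe for differences, and cover counting error only. Scripts were tested on simulated data and ran in Python 3.11.15 with scipy 1.17.1 and scanpy 1.11.5.

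The genes and lists were chosen with earlier results of these data known. Named were a fixed set of genes and, in macrophage-like, fibroblast-like and epithelial-like cells, the 3 highest and 3 lowest ratios and the 10 genes most raised in cycling cells. Other named genes, the set of 35 genes, the naming rule for clusters led by another cell type's genes, the leaving out of such clusters, the S share of thinned cells and the average of 10 draws were chosen after seeing the data.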

Additional observations from a re-analysis of the deposited data

Results flagged for a closer look

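The log2 ratio of the share of cycling cells between the DTX-labelled and the PBS-labelled library was 1.29 in fibroblast-like cells and -0.98 in dendritic-like cells, so that these classes lay in opposite directions. The difference between them was not tested, since each library is 1 sample.

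Cells that the comparisons leave out also held cycling cells, called in the same way at 2000 UMIs from 38 genes. Among cells removed as doublets in the PBS-labelled library, 8.58% (32 of 373, interval 5.94 to 11.9%) were cycling, against 5.19% of kept cells, with medians of 18514 and 10095 UMIs before thinning. Among cells over 6% mitochondrial UMIs the shares were 8.30% (168 of 2025, 7.13 to 9.58%) in the PBS-labelled library and 6.68% (164 of 2454, 5.73 to 7.74%) in the DTX-labelled library, against 4.10% of kept cells in the latter.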

How the results depend on the processing

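No paired analysis was possible because the groups hold 1 library each. Values of the main comparisons under other settings stayed within their counting interval or 1.5-fold in 173 cases and moved further in 51, and 1 more, the summed G2/M genes of dendritic-like cells, turned although its interval had left out 0. Leaving out counts of genes, 25 of 173 values changed sign, all but that 1 from an interval that included 0. The cause was not tested for any of them. In fibroblast-like cells the log2 ratio of the share of cycling cells was 3.48 with 500 to 2000 genes per cell, where 1 cycling cell was left in each library, and in macrophage-like cells 0.48 with another seed. The summed G2/M genes of fibroblast-like cells had log2 ratios of 2.08 with 500 to 2000 genes, 1.15 with no doublets removed, 1.22 without Pcna, Cdt1 and Cenpa and 1.27 without clusters led by other types' genes, and their S genes 0.86 with 500 to 2000 genes. Dendritic-like cells depended most on the settings. Their summed G2/M genes turned to 0.20 with cell-cycle genes kept in clustering, and stood at -0.63 at resolution 0.4, -0.92 without the 3 genes and -0.56 without the clusters, with -0.13, -0.26, -0.56 and -0.23 for their S genes in the same order. In macrophage-like cells the summed S genes stood at -0.060 with 500 to 2000 genes, -0.26 against another total and -0.090 without the 3 genes, and the G2/M genes at -0.061 against another total. With no doublets removed the summed G2/M genes were at 0.21 for epithelial-like cells and at -0.014 for the NK- or T-like class.

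The S share differed between the libraries, in cycling cells only, by -3.70 points in NK- or T-like, 2.25 in dendritic-like, 9.46 in epithelial-like, -6.98 in fibroblast-like and -0.578 in macrophage-like cells. Without the most abundant S and G2/M gene it differed by 6.23 points in dendritic-like, 9.56 in epithelial-like and -12.5 in fibroblast-like cells, and without the 3 genes by 6.02 in dendritic-like, -11.9 in fibroblast-like and -0.960 in macrophage-like cells. In dendritic-like cells it was -4.71 points at 2000 UMIs per cell, -5.76 with cell-cycle genes kept, 6.43 at resolution 0.4 and 5.70 without the clusters. At 2000 UMIs per cell it was -2.35 in NK- or T-like, 9.17 in epithelial-like and -13.1 in fibroblast-like cells. With no doublets removed it was 1.92 in epithelial-like and -12.0 in fibroblast-like cells, and with 500 to 2000 genes -0.938 in macrophage-like cells. Genes past 1.5-fold numbered, in fibroblast-like cells, 0 higher with 500 to 2000 genes, where 1 gene had enough UMIs, and 10 at a minimum of 200 UMIs. In macrophage-like cells 1, 0 and 1 were higher with 500 to 2000 genes, at a minimum of 200 UMIs and with cell-cycle genes kept, and 1, 5 and 1 were lower at a minimum of 200 UMIs, with cell-cycle genes kept and at resolution 0.4. In epithelial-like cells 3 were lower with at least 200 UMIs and 1 with no doublets removed. The shares of all genes past 1.5-fold under these settings are not given here. With 500 to 2000 genes Birc5 (-0.43) and Pcna (0.033) changed sign in macrophage-like cells. The main limits are 1 library a group, a label of genotype and treatment that the study's methods do not share, few cycling cells in the smaller classes, and UMIs of one gene from few cells.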

Other observations

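Among genes of no cell-cycle list, those most raised in cycling cells of both libraries, chosen on these values, included genes of chromatin and microtubules. In fibroblast-like cells the log2 ratios of cycling to other cells were 3.24 and 2.48 for Selenoh, 2.95 and 2.45 for the tubulin gene Tuba1b, 2.60 and 2.35 for the histone variant gene H2afz and 3.51 and 2.33 for the tubulin gene Tubb5, and Gpc1, Anp32e, Rad21, Anp32b, Tnn and Nans completed the 10. In epithelial-like cells they were 2.37 and 2.36 for H2afz, 2.20 and 2.26 for the chromatin gene Hmgb1 and 1.47 and 1.98 for the chemokine gene Ccl2, with Anp32b, Ybx1, Ucp2, Nfib, Hspe1, Hint1 and Hspd1. In macrophage-like cells, where the call was weakest, they were 2.33 and 2.19 for the heat shock gene Hspb1 and 2.31 and 1.38 for Tuba1b, with Slamf9, H2afv, Ddx39, Uchl5, Pmf1, Mrpl51, Naf1 and Tusc3.

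Fibroblast-like cells with a UMI of Gpnmb were cycling in 8 of 1417 cells (0.565%) of the PBS-labelled library and 6 of 204 (2.94%) of the DTX-labelled library, and those without in 39 of 1565 (2.49%) and 19 of 446 (4.26%).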
